A study of Monodelphis domestica and Mus musculus and Sus scrofa with 73 samples.

Results

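The genes described here are 72 of the 27026 genes measured in the limbs of embryos of the bat *Carollia perspicillata*, and they were chosen by their own expression: in both the forelimb and the hind limb their level dropped from stage 13 to stage 14 and then moved little from stage 14 to stage 15. The level of a gene was its expected count per 1000000 counts of the library (CPM), and group levels were means of log2(CPM + 0.5) over the libraries of a group. A gene was selected if its mean length was at least 1000 bases, its mean CPM over the libraries was at least 1, its group level fell by at least 1 on the log2 scale from stage 13 to 14 in each limb, and its group level at stage 15 lay within 0.7 of that at stage 14 in each limb. Of 11752 genes past the length and CPM minimums, 225 met the limit on the fall in the forelimb and 650 met it in the hind limb. The fall was met in both limbs by 158 genes, of which 72 also stayed within the limit from stage 14 to 15. The rule used these stage changes, so their sizes and the calls on them describe the members and are no evidence of the drop.

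The bat libraries belong to a study of limb expression in several mammals. Of these, 16 libraries were analysed, with 3 per limb at stage 13, 3 per limb at stage 14 and 2 per limb at stage 15. The embryos were wild, came from field collecting in Trinidad, and carried no stated genotype or treatment. Age is given only as a stage, where the limb is a ridge at stage 13, a bud at stage 14 and a paddle at stage 15. The labels call 2 of the stage 14 forelimb libraries early stage (ES) and the 2 stage 15 forelimb libraries late stage (LS), while the remaining stage 14 forelimb library carries only its stage number. Every stage 13 and every hind limb library also carries only a stage number, and the ES and LS libraries have sample numbers in a separate range. Whether they were prepared separately is not stated. At stage 15 this split coincides with limb, so the split and the limb cannot be told apart there. In the forelimb it partly coincides with the change from stage 13 to 14. Total RNA came from dissected limbs preserved in RNALater. The labels do not say whether replicates came from separate embryos, so p-values here measure only the spread between these libraries, which may be technical. The deposited tables' names carry what look like specimen numbers, and the same number occurs for forelimb replicate 1 and hind limb replicate 3 of stage 13, so these libraries may come from 1 embryo although they were treated as separate. Each library mixes all cell types of the limb, and fewer cells of a type cannot be told apart from less RNA per cell.

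A limb begins as a thickening of the body wall that grows out under signals exchanged between its mesenchyme and the ectodermal ridge at its rim. As it elongates, early undifferentiated mesenchyme is patterned along its axes and later condenses into the cartilage models of the skeleton. In bats the forelimb goes on to form the wing, while the hind limb stays small. The genes were assembled de novo from the bat reads, and the files identify them by assembly component and do not pair those identifiers with gene names. The roles of the 72 genes, the labelled tissue and the markers of other cell types therefore could not be checked against known genes, and no gene sequences were used here.

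The summed expected counts ranged from 13600741 to 61814821 per library, with a median of 22714005, and 3 counts corresponded to between 0.0485 and 0.221 CPM. One stage 13 forelimb library, replicate 3, stood apart from the other libraries of its group. A count was recorded in this library for 23.1% of the 5598 genes shorter than 300 bases, against 11.7% and 8.9% in forelimb replicates 1 and 2 of the same stage. The share was 24.2%, 25.7% and 24.7% in the stage 13 hind limb libraries. At stage 14 it was 6.88% to 13.6% in the forelimb, and 11.6%, 11.6% and 19.8% in the hind limb. At stage 15 it was 6.36% to 11.6%. Forelimb replicate 3 also had the fewest counts of all libraries, and in its share of short genes and in the levels given below it was nearer to the stage 13 hind limb than to its own group. Its limb label was checked, after these values were seen, with the 3 genes past the minimums that differed by at least 2 on the log2(CPM + 0.5) scale between every forelimb and every hind limb library of stages 14 and 15, none of them among the 72. The 1 gene higher in the forelimb was at 6.69 in forelimb replicate 3, at 6.09 and 6.22 in replicates 1 and 2, and at 1.76 to 2.96 in the stage 13 hind limb. The 2 genes higher in the hind limb had medians of 2.22 in replicate 3, 1.8 and 2.86 in replicates 1 and 2, and 6.71 to 7.12 in the stage 13 hind limb. In these genes replicate 3 lay with the forelimb, while whether its stage or its preparation differed from that of the others was not tested. Where a result that rests on it was also computed without it, both values are given.

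As a group, the 72 genes were most abundant in the stage 13 hind limb and in forelimb replicate 3 of stage 13. Their summed level was 709, 706 and 2161 CPM in stage 13 forelimb replicates 1, 2 and 3. In the stage 14 forelimb it was 467, 371 and 433 CPM, and in the stage 15 forelimb 387 and 348 CPM. In the hind limb the sum was 1253, 1648 and 1826 CPM at stage 13, 380, 473 and 552 CPM at stage 14, and 413 and 331 CPM at stage 15. All stage 13 libraries of both limbs thus lay above all stage 14 and 15 libraries, but forelimb replicates 1 and 2 lay closer to the later stages than to the other stage 13 libraries. The 4 libraries with the highest sums were the 4 with the largest share of short genes with a count. Hind limb stage 14 replicate 3, next by that share at 19.8%, had a lower sum than forelimb replicates 1 and 2 of stage 13. All these libraries entered the rule that chose the genes, so the order of the sums depends on the selection. The part of the share of short genes in the levels of the 72 genes was not tested.

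**Figure D1:**
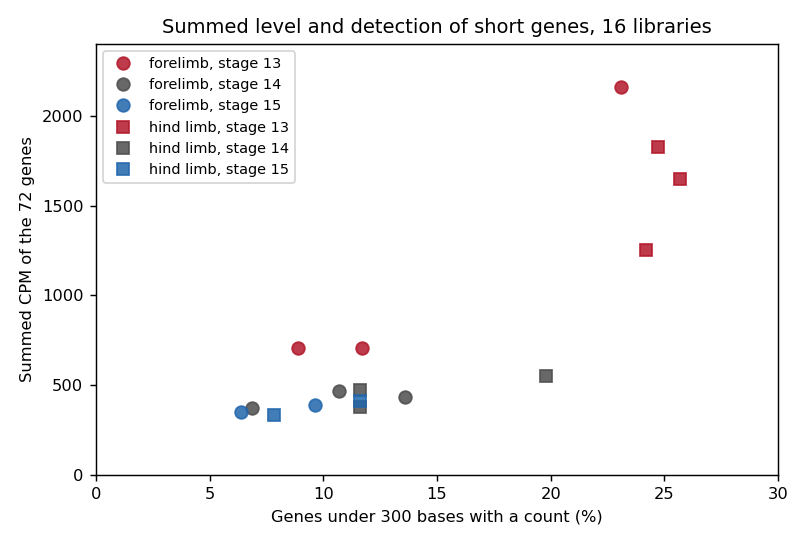
Summed CPM of the 72 genes (vertical axis) against the percentage of genes under 300 bases with a count (horizontal axis), with 1 point per library, circles for forelimb and squares for hind limb, coloured by stage. The 3 hind limb libraries of stage 13 and forelimb replicate 3 lie at 1253 CPM or more with shares of 23.1% or more, and the other 2 forelimb libraries of stage 13 lie at 709 and 706 CPM with shares of 11.7% and 8.9%.

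The same order held for the typical gene of the set. The median of the 72 genes was 5.06, 5.55 and 18.5 CPM in stage 13 forelimb replicates 1 to 3, and 2.44 to 2.79 CPM in the stage 14 forelimb. The hind limb medians were 7.68, 14.4 and 14.7 CPM at stage 13 and 2.45 to 2.99 CPM at stage 14. At stage 15 it was 2.12 to 2.55 CPM over both limbs. On the log2(CPM + 0.5) scale, the median of all 11752 genes past the length and CPM minimums varied only from 4.84 to 5.03 over the libraries. That of the 72 genes varied from 1.39 to 4.25. Whether other genes of like level shifted between these libraries in the same way was not tested. Per kilobase of length, the median level of the 72 genes was 4.89, 1.25 and 1.14 CPM in the forelimb at stages 13, 14 and 15, and 6.37, 1.32 and 1.18 CPM in the hind limb. The corresponding medians over all genes past the minimums were between 12 and 12.8 CPM per kilobase. The set thus lay below the typical gene at all stages, and after stage 13 about an order of magnitude below it.

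**Figure D2:**
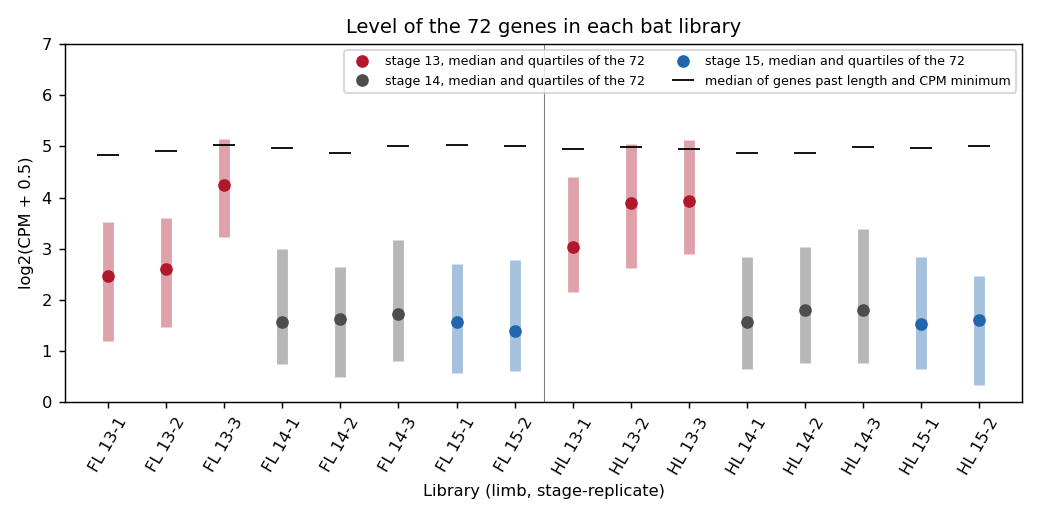
Level of the 72 genes in each library on the log2(CPM + 0.5) scale, with points for medians, bars for the quartiles over the 72 genes, and black ticks for the median of all genes past the length and CPM minimums. The medians are 2.47, 2.6 and 4.25 in the stage 13 forelimb, 3.03, 3.9 and 3.93 in the stage 13 hind limb, and between 1.39 and 1.8 in all libraries of stages 14 and 15.

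Low levels after stage 13 were rarely complete absence. At least 1 count was recorded in all 16 libraries for 69 of the 72 genes (95.8%, against 99.3% of all genes past the minimums). A mean of less than 1 CPM in each of the 4 groups of stages 14 and 15 was found for 12 genes (16.7%, against 0.545%). A single gene had fewer than 10 counts in each of the 10 libraries of those stages (1.39%, against 0.017%). The CPM minimum of the rule favours genes with counts.

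From stage 13 to 14, the median change of the 72 genes in log2 group level was -1.14 in the forelimb, with quartiles of -1.29 and -1.06 and a range from -2.81 to -1.0. The median hind limb change was -1.73, with quartiles of -2.13 and -1.39 and a range from -3.37 to -1.02. A drop of at least 2 was found for 3 genes in the forelimb and for 21 in the hind limb. Most of the forelimb values were thus packed just past the limit, while the hind limb values reached well beyond it. The drop was larger in the hind limb than in the forelimb for 61 of the 72 genes (84.7%), against 56.7% of all genes past the minimums.

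Of the limits of the rule, that on the forelimb drop excluded the most genes that met all the others, at any distance from it. There, the last gene inside had -1.002 and the first one outside -0.9996, and 343 genes failed this limit alone. For the hind limb drop these values were -1.02 and -0.9749, with 28 genes failing it alone. The size of the stage 14 to 15 change was 0.6885 inside and 0.7032 outside in the forelimb (21 genes failing alone), and 0.6826 and 0.7026 in the hind limb (29 genes). The shortest gene inside had 1047 bases and the longest one outside 915 (6 genes), and for mean CPM the values were 1.029 and 0.9528 (8 genes).

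Calls used edgeR's quasi-likelihood test over all genes with enough counts and a Benjamini-Hochberg adjusted p under 0.05. Of the 72 genes, 66 were called lower at stage 14 in the hind limb, where 6.42% of all genes tested were called lower. In the forelimb 10 were called lower, where 0.834% of all genes tested were, although 71 had an unadjusted p under 0.05. The call was made in both limbs for 8 genes and in neither limb for 4. All stage 13 libraries lay above all stage 14 libraries for 70 genes in the hind limb (97.2%, against 21.2% of all genes past the minimums) and for 46 in the forelimb (63.9%, against 12%). Both limbs showed such a gap for 44 genes (61.1%, against 6.31%). The rule asked for this drop in these libraries, so the distance of these counts and shares from those of all genes follows from the selection. The hind limb count was 35 without stage 13 replicate 3, 36 without stage 14 replicate 1 and 40 without stage 14 replicate 2. Over all genes tested, 203, 233 and 324 were then called lower, against 963 with all libraries. The forelimb count was 1, 2 and 5 without stage 14 replicates 1, 2 and 3, 4 without stage 13 replicate 1, and 17 without stage 13 replicate 3. Over all genes tested, 12, 17, 39, 36 and 233 were then called lower, against 122 with all libraries. DESeq2 called 43 members lower in the forelimb and 527 of the 14630 genes tested. The calls over all genes thus moved along with those of the members.

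Forelimb replicate 3 of stage 13 carried much of the forelimb drop, and the rule used the group mean, which 1 high library can raise. It was the highest library of its group for 66 of the 72 genes (91.7%), against 48.7% of all genes past the minimums. Its level exceeded the mean of replicates 1 and 2 by more than 2-fold for 54 genes (75%, against 8.58%) and by more than 4-fold for 31 (43.1%, against 1.37%). The median excess was 1.74 on the log2(CPM + 0.5) scale, within a range from -1.51 to 3.79, and it was 0.1 over all genes past the minimums. For these genes, then, the stage 13 forelimb mean lay between an abundant library and a pair of much lower ones. The median SD between stage 13 forelimb replicates was 1.04 (log2) for the 72 genes, against 0.36 for the 2645 genes between the quartiles of the members' mean CPM. In the other 5 groups the median SD of the 72 genes was 0.2 to 0.41, against 0.17 to 0.31 for the genes of like level.

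Without replicate 3, the forelimb change from stage 13 to 14 had a median of -0.59, with a range from -2.21 to 0.23. It was -1 or lower for 15 of the 72 genes, between -1 and -0.5 for 31, between -0.5 and 0 for 25, and above 0 for 1. The direction was therefore kept by 71 genes, and the size that the rule asks for by 15. Over all genes past the minimums, 1.23% were at -1 or lower and 57.1% at or above 0. The forelimb libraries left in also entered the rule, so these counts depend on the selection and are no separate evidence of the drop. In the fit without replicate 3, 17 genes were called lower, where 1.56% of all genes tested were, and these included all 10 called with it. Applied without this library, the rule selected 16 genes, of which 14 were among the 72. Applied without forelimb replicate 1 or 2 of stage 13 instead, it selected 183 and 158 genes, of which 68 and 70 were among the 72.

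**Figure D3:**
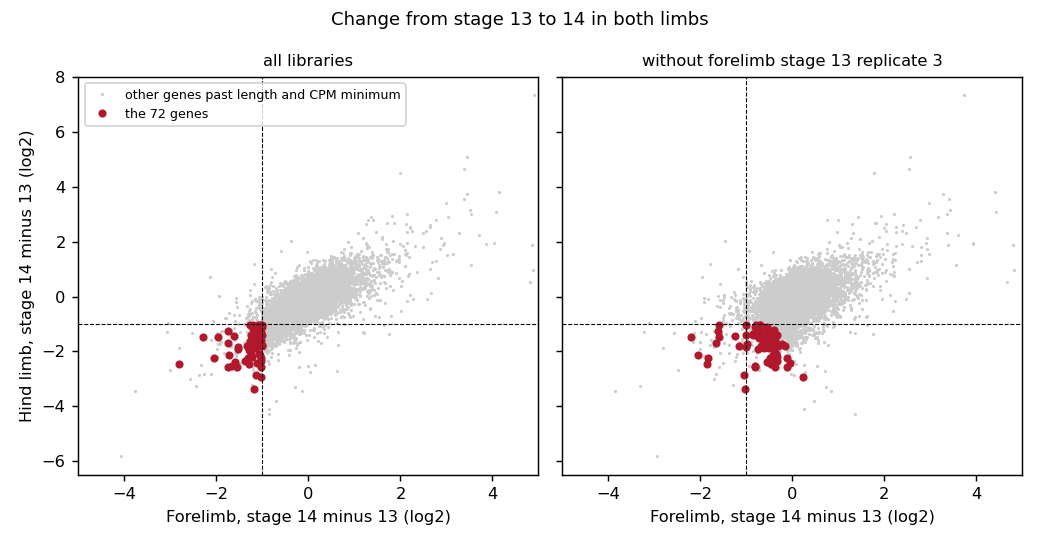
Change in log2 group level from stage 13 to 14 in the forelimb (horizontal) and hind limb (vertical) for the 72 genes (red) and all other genes past the length and CPM minimums (grey), with all libraries (left) and without forelimb replicate 3 of stage 13 (right), where dashed lines mark -1. With all libraries the red points lie past both lines by the rule, and without that library 15 of 72 remain left of the forelimb line.

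The 15 genes that kept a forelimb drop of at least 1 without replicate 3 and the other 57 were also looked at apart, a split made on these forelimb values, which therefore fixes how their forelimb levels differ. In the 15, the median level on the log2(CPM + 0.5) scale was 3.14, 3.12 and 3.7 in stage 13 forelimb replicates 1, 2 and 3. In the 57 it was 2.22, 2.32 and 4.43. All 3 stage 13 forelimb libraries lay above all 3 of stage 14 for 14 of the 15 genes and for 32 of the 57. In the hind limb, which the rule used but the split did not, the median changes were -1.7 and -1.74. There, all stage 13 libraries lay above all of stage 14 for 15 and 55 genes. Over all genes past the minimums, such a gap was found for 12% in the forelimb and 21.2% in the hind limb. The rule asked for the drop in both limbs, so the higher shares of the members follow from the selection. Hind limb replicate 3 of stage 14, which had the highest share of short genes at that stage, was below the stage 13 mean for all 72 genes, by a median log2 difference of -1.58 against -1.85 for replicates 1 and 2, and all 3 entered the group mean that the rule used. Among the stage 13 hind limb libraries, replicate 1 was the lowest for 57 genes, with a median of -0.58 against the mean of the other 2.

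The gene with the largest mean drop over both limbs, comp107450_c0, went from a low level to nearly none. In the forelimb it was at 1.73, 2.22 and 17.3 CPM at stage 13, at 0.143, 0.183 and 0.215 CPM at stage 14, and at 0 CPM in both libraries of stage 15. In the hind limb it was at 1.04, 3.29 and 6.16 CPM at stage 13, at 0.109, 0.0647 and 0.168 CPM at stage 14, and at 0.214 and 0.237 CPM at stage 15. Every stage 13 library lay above every later library of either limb, and forelimb replicate 3 lay far above all others. The means were 7.09 ± 8.87 CPM (SD, n = 3) at stage 13 and 0.18 ± 0.036 CPM (SD, n = 3) at stage 14 in the forelimb, and 3.5 ± 2.57 and 0.114 ± 0.0516 CPM (SD, n = 3) in the hind limb. The stage 14 values rest on 3 to 7 counts per library, and the 0 counts at stage 15 in the forelimb allow up to 0.161 and 0.185 CPM (3 counts, counting error only). The fitted log2 fold change of stage 14 over 13 was -5.17 (SE 0.963) in the forelimb, -3.46 (SE 0.440) without replicate 3, and -4.98 (SE 0.739) in the hind limb.

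The gene with the highest mean CPM of the set, comp128423_c0, was well counted throughout and dropped by about the limit of the rule. In the forelimb it was at 73.3, 67.8 and 136 CPM at stage 13, at 54.3, 33.1 and 44.7 CPM at stage 14, and at 40.4 and 31.6 CPM at stage 15. Its hind limb level was 102, 95.9 and 111 CPM at stage 13, 47.8, 46.7 and 54.9 CPM at stage 14, and 39.7 and 32.7 CPM at stage 15. Stages 13 and 14 did not overlap in either limb, and the lowest stage 13 library was a forelimb replicate other than replicate 3. The means at stages 13 and 14 were 92.4 ± 38.0 and 44.0 ± 10.6 CPM (SD, n = 3) in the forelimb, and 103 ± 7.57 and 49.8 ± 4.42 CPM (SD, n = 3) in the hind limb. The fitted log2 fold change was -1.05 (SE 0.254) in the forelimb, -0.73 (SE 0.180) without replicate 3, and -0.995 (SE 0.138) in the hind limb.

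**Figure D4:**
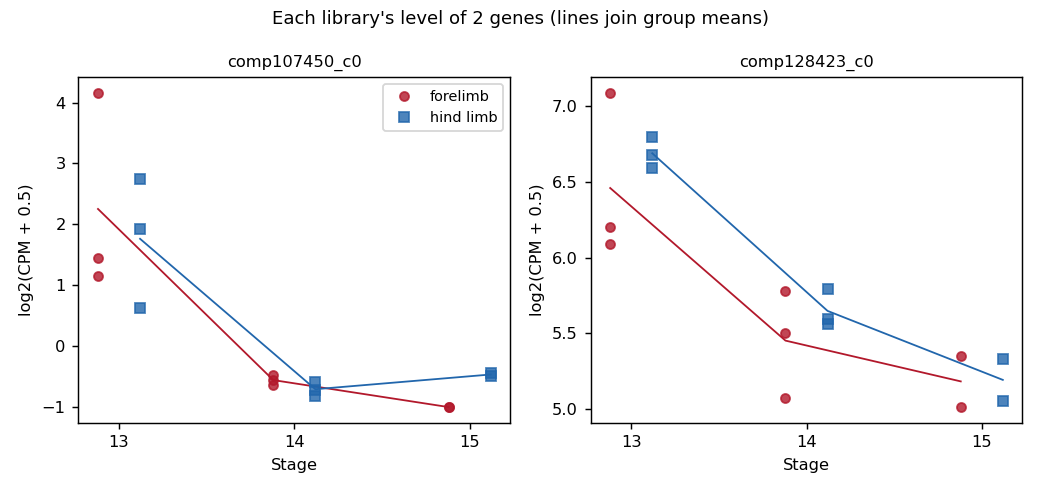
Level of comp107450_c0 (left) and comp128423_c0 (right) in each library on the log2(CPM + 0.5) scale by stage, with forelimb as circles and hind limb as squares and lines joining group means. Stage 13 libraries lie above stage 14 libraries in both limbs for both genes, and the highest stage 13 forelimb point of each is replicate 3, at 17.3 and 136 CPM.

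From stage 14 to 15 the changes were small, as the rule required, but they were not centred on 0. The median change in log2 group level was -0.18 in the forelimb and -0.28 in the hind limb, and 51 (70.8%) and 56 (77.8%) of the 72 genes had a change below 0. Among all genes past the minimums, 48.0% and 45.7% did and the medians were 0.02 and 0.04. In the forelimb 1 of the 68 members tested was called, lower at stage 15, where 4.34% of all genes tested were called lower, and without any 1 of the 5 libraries 0 were called. In the hind limb 0 of 70 members tested were called by edgeR or by DESeq2, where 4.97% of all genes tested were called in either direction, and 9 had an unadjusted p under 0.05 in edgeR. The limit on this change in the rule leaves few such calls among the members. Over the whole span from stage 13 to 15 the median change was -1.41 in the forelimb and -2.05 in the hind limb. A level at least 1 below that of stage 13 was kept by 62 and 69 genes. Among all 11752 genes past the minimums, 700 and 1012 were that low. The limits of the rule on both steps largely set these values for the members. The forelimb values include replicate 3 of stage 13 and were not computed without it.

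The rule set no limit on the difference between limbs, although the stage 13 and 14 libraries of both limbs entered it. For each gene, the stage 13 difference is fixed by its stage 14 difference and its change in each limb. It is thus not separate from the larger hind limb drop given above. At stage 13 the median difference of forelimb minus hind limb in log2 group level was -0.67, with quartiles of -0.94 and -0.37, and 66 of the 72 genes were lower in the forelimb. Over all genes past the minimums the median was -0.02, and 53.7% were lower in the forelimb. None of the differences passed the test: 0 of the 72 genes were called by edgeR, where 0.0747% of all genes tested were, with a lowest adjusted p of 0.211 and a median SE of 0.548 on the log2 fold change. An unadjusted p under 0.05 was found for 3 genes. DESeq2 called 2 members, both lower in the forelimb, and 127 of the 14729 genes tested in either direction. This fit includes forelimb replicate 3, whose levels went the other way.

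Set against the stage 13 hind limb mean, forelimb replicates 1 and 2 had a median log2 difference of -1.28, with 69 of the 72 genes lower in the forelimb. Replicate 3 alone had a median difference of 0.57, with 11 genes lower. With replicate 3 left out, edgeR called 37 of the 72 genes, all lower in the forelimb, where 5.76% of all genes tested were called lower. This count is no test of the limbs, because 57 of the 72 genes met the forelimb limit of the rule only with replicate 3 and all were chosen for a high stage 13 hind limb level relative to stage 14. The fitted log2 fold changes then ranged from -3.47 to 0.87 with a median of -1.38. Of the 15 genes that kept a forelimb drop of at least 1 without replicate 3, 2 were among these 37. The number called at stage 13 thus changed with 1 library, which shared a high percentage of short genes with the stage 13 hind limb libraries, and the part of that percentage was not tested.

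**Figure D5:**
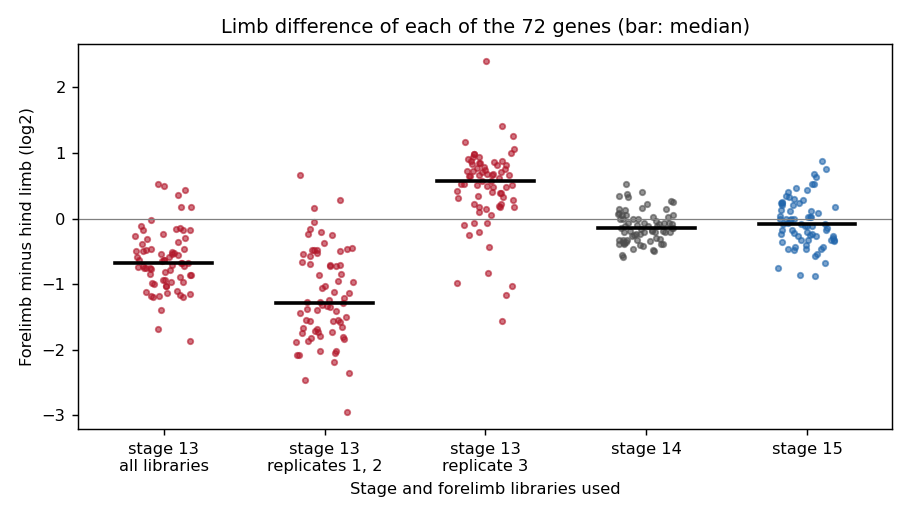
Forelimb minus hind limb level of each of the 72 genes (log2 difference of group levels, 1 point per gene, horizontal bar for the median) at stage 13 with all libraries, with forelimb replicates 1 and 2, and with forelimb replicate 3 alone, and at stages 14 and 15. The medians are -0.67, -1.28, 0.57, -0.15 and -0.09.

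After stage 13 the limbs were close. The median difference of forelimb minus hind limb was -0.15 at stage 14 and -0.09 at stage 15, with 51 and 44 of the 72 genes lower in the forelimb. These are 70.8% and 61.1%, against 47.6% and 47.8% of all genes past the minimums. At stage 14 edgeR called 0 of 70 members tested, where 0.155% of all genes tested were called, and 3 had an unadjusted p under 0.05. At stage 15 it called 0 of 68, where 0.823% of all genes tested were called, and 1 had an unadjusted p under 0.05. DESeq2 called 0 members at both stages. The median SE of the log2 fold change was 0.316 at stage 14 and 0.427 at stage 15, which limits the size of difference these libraries can show. At stage 15, 1 member was called without forelimb replicate 1.

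Both named genes missed the threshold between limbs. For comp128423_c0 the log2 fold change of forelimb over hind limb was -0.14 (SE 0.225, edgeR adjusted p = 0.900) at stage 13, -0.21 (SE 0.176, adjusted p = 0.804) at stage 14 and -0.02 (SE 0.193, adjusted p = 0.995) at stage 15. For comp107450_c0 it was 0.95 (SE 0.939, edgeR adjusted p = 0.861) at stage 13 and -0.75 (SE 0.633, adjusted p = 0.501) without replicate 3, so that its sign depended on that library, and it had too few counts to be tested at stages 14 and 15.

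The difference between the limbs in the change from stage 13 to 14 was tested as an interaction, which the rule restricts because it asks for a drop in both limbs. With all libraries edgeR called 0 of the 72 genes and 0% of all genes tested, with a median SE of 0.730 and 2 members at an unadjusted p under 0.05. DESeq2 called 1 member and 61 of the 15676 genes tested. Without forelimb replicate 3 of stage 13, 0 members were called, where 1 of the 16079 genes tested was, and 32 members had an unadjusted p under 0.05. That count of 32 is no test of the limbs, because 57 of the 72 genes met the forelimb limit of the rule only with replicate 3. All 72 were also chosen for a hind limb drop. The larger hind limb drop of 61 genes was therefore not shown to differ from the forelimb drop by this test.

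In features that the rule did not use, the median number of assembled isoforms was 2 for the 72 genes, for all genes past the minimums and for the genes of a mirrored rule that asks for a rise in place of the drop, but genes with many isoforms were a smaller share of the 72. A single isoform was assembled for 35 of them (48.6%), against 33.6% of all genes past the minimums and 35.2% of the genes of like level. More than 5 isoforms were assembled for 7 (9.72%), against 23.5% and 19.5%. The mean number of isoforms was 2.53, against 5.9 and 5.09, and the highest was 17. The mean over all genes has a long tail, up to 158 isoforms, and none of these differences was tested. Of the 39 genes selected by the mirrored rule, 46.2% had a single isoform.

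Expected counts that are not whole numbers arise when reads fit more than one gene and are divided among them. Read to the 2 decimals deposited, they were found in at least 1 library for 57 of the 72 genes (79.2%), against 95.3% of all genes past the minimums, 92.7% of the genes of like level and 97.4% of the mirrored set. The counts of these 57 genes are thus partly estimates. The Trinity component number was shared with another gene for 6 of the 72 (8.33%, against 6.91%), and no pair of the 72 shared one. The median length was 2357 bases, with quartiles of 1727 and 3066, against 2534 for all genes past the minimums, and the range was 1047 to 10565. The mean CPM over the libraries had a median of 5.83, with quartiles of 2.71 and 13.7, against 31.3.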

How the data were processed

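Whole limbs were sequenced as TruSeq RNA libraries on an Illumina HiSeq instrument. For the bat, the authors trimmed reads, assembled all bat libraries together with Trinity, retained those matching SwissProt proteins, and quantified each library with RSEM. Program versions are not given in the sources used here. The deposited gene values used here are RSEM expected counts, which are not normalized, with reads that fit several genes divided among them. The deposited FPKM values, which the authors' RSEM run scaled by effective length and library size, were used only in 1 alternative. Gene lengths came from the same files, and TPM, posterior mean and interval columns were not used. Libraries of other species were not analysed here.

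CPM was the expected count over the library sum times 1000000, with a pseudocount of 0.5 before log2. Counts were rounded to whole numbers for edgeR 4.0.16 (R 4.3.3), with TMM factors, quasi-likelihood tests on the libraries of the groups compared, a rounded count of at least 10 in as many libraries as the smaller group, and Benjamini-Hochberg adjustment over all genes tested (threshold 0.05). The interaction used the stage 13 and 14 libraries of both limbs. Groups and replicate numbers came from the labels. Replicate pairs differed by more than sampling noise (14 pairs, chi-square per degree of freedom 18.9 to 72.2). Some of the edgeR fits were tested on simulated counts with a single dispersion and no outlying library. That test does not cover a library such as forelimb replicate 3 of stage 13. Figures were drawn with matplotlib 3.10.9 and tables made with pandas 2.3.3 under Python 3.11.15 (numpy 2.4.6).

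The members and the rule were chosen with earlier results of these data known. The genes named are the one with the largest mean drop over both limbs and the one with the highest mean CPM, and members called by edgeR between limbs with all libraries would have been named too, but 0 were. Alternatives were DESeq2 1.42.0, RLE factors, no filter or a minimum count of 50, all 16 libraries in 1 fit, a replicate block, each library left out, other pseudocounts, TMM, FPKM, group medians, no length minimum or a CPM minimum of 5 in the rule, and 3 combinations of left-out libraries, used for 4 results and chosen after seeing the data.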

Additional observations from a re-analysis of the deposited data

How the results depend on the processing

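Of 188 alternative values over 12 results, 32 moved, counts by over 1.5 times and medians by more than the spread of library values, and 156 did not. Medians which changed within that spread are among the 156. So are medians that could not move, because the library left out was in neither group compared. The spread for the forelimb median (0.7) includes stage 13 replicate 3 itself. Its change from -1.14 to -0.59 without that library is therefore among the 156, and the tally does not measure robustness. The number of the 72 genes called lower at stage 14 in the forelimb (10) was 43 with DESeq2 and 32 with all 16 libraries in 1 fit, and 1 to 17 with a library left out, with values of 1, 2, 4 and 5 without stage 14 replicates 1 and 2, stage 13 replicate 1 and stage 14 replicate 3. In the hind limb (66) it was 35 to 65 with a library left out and 3 with stage 14 replicates 1 and 2 both left out, a fit with 1 stage 14 library whose spread is assumed to be that of the others. For stage 15 against 14 in the forelimb (1) it was 2 with DESeq2, 0 with a minimum count of 50, 0 with all 16 libraries in 1 fit and 0 with any library left out, and in the hind limb 0 throughout. Between limbs it was 2 with DESeq2 and 0 to 37 with a library left out at stage 13, 0 at stage 14, and 0 to 1 at stage 15. The interaction gave 1 with DESeq2 and 0 with any library left out. The rule selected 26 genes with group medians in place of means (17 of them among the 72), 40 with a minimum CPM of 5, 62 from TMM-scaled CPM (61), 62 from FPKM (43), 55 and 78 with pseudocounts of 1 and 0.1 (42 and 52), 16 to 183 with a library left out, and 23 (10) without forelimb stage 13 replicate 3 and hind limb stage 14 replicates 1 and 2. With a library left out, the median change was -1.55 to -0.59 in the forelimb and -1.91 to -1.58 in the hind limb, and the median limb difference at stage 13 was -1.28 to -0.35. The calls over all genes tested moved as well. For stage 14 against 13 in the forelimb, 122 genes were called lower in the main fit, 527 with DESeq2 and 308 with all 16 libraries in 1 fit. The causes of all these differences were not tested. The labels give libraries of 1 replicate number nothing in common but that number. Same-numbered stage 13 libraries of the limbs had correlations of deviations from -0.11 to 0.21, those of stage 14 from -0.0706 to 0.64, and at most 4 of 6 libraries correlated best with their own number in any such comparison. With the number as a replicate block the counts were 26 and 65 for stage 14 against 13 in forelimb and hind limb, 0 for stage 15 against 14, 0, 0 and 1 for the limbs at stages 13, 14 and 15, and 0 for the interaction. Calls of genes at a few counts, such as comp107450_c0 after stage 13, are limited by depth.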

Other observations

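The mirrored rule, with a rise of at least 1 from stage 13 to 14 in both limbs and a change within 0.7 from stage 14 to 15, selected 39 genes, fewer than the 72. Their median rise was 1.32 in the forelimb and 1.36 in the hind limb, and it was 1.41 in the forelimb without stage 13 replicate 3. The median excess of forelimb replicate 3 over replicates 1 and 2 was 0.13 (log2) in the mirrored set, against 1.74 in the 72 genes and 0.1 over all genes past the minimums. The test of the difference between the sets was not made, because both were chosen on these libraries.

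Across the 11752 genes past the length and CPM minimums, the excess of forelimb replicate 3 over the other stage 13 forelimb libraries and the hind limb drop from stage 13 to 14, on the log2 scale, had a Pearson r of 0.54 and a Spearman rho of 0.49. These 2 measures share no library, although genes are not independent replicates and the share of short genes with a count was high in replicate 3 and in the stage 13 hind limb. Within the 72 genes the coefficients were 0.44 and 0.57. Over all genes past the minimums, the forelimb change without replicate 3 and the hind limb change had coefficients of 0.52 and 0.44. Within the 72 genes these were -0.15 and -0.27. The rule limits the change of both limbs, that of the forelimb with replicate 3 included, so the coefficients within the 72 genes depend on the selection.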
